A study of Mus musculus with 12 samples.

Results

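Imprinted growth genes are read from 1 parental copy, and many of them set how large the embryo and placenta grow. In mouse, paternally read genes such as Igf2 and Mest promote growth, whereas maternally read genes such as Igf2r and Grb10 restrain it. IGF2 drives growth through the IGF1 receptor, IGF2R carries IGF2 to the lysosome, and GRB10 binds the activated insulin and IGF1 receptors and dampens them. The genes considered here were 10 (Mest, Igf2, Peg3, Plagl1, Dlk1, Peg10, Ndn, H19, Igf2r and Grb10), selected on their log2 signals across the 4 groups and on detection, with earlier results of these data known. Their probes were found by the RefSeq identifier in the array files. Of the 10 genes, 9 had a probe, with 13 probes in all, and H19 was not analysed here. The array held probes of 17016 genes, of which 12438 could be tested, 6 of the imprinted growth genes among them.

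The study measured 12 cultures of 2 lines of mouse embryonic fibroblasts on 1-colour Agilent arrays. The KO line lacks focal adhesion kinase (FAK), a tyrosine kinase of cell-matrix contacts encoded by Ptk2. The rescue line is clone DA2, a single clone of FAK knockout cells given FAK back, and its medium held hygromycin B, which the KO medium did not. Each line was seeded dense (8200000 cells per 10 cm dish) or sparse (410000 cells per 10 cm dish) and harvested after about 24 h, once on each of 3 days. The 4 groups were therefore KO dense, KO sparse, rescue dense and rescue sparse, with 3 cultures each. Since each line is 1 population or clone, differences between the lines cannot be told apart from differences that arose between them in culture. Arrays do not read which parental copy a transcript came from.

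The 75th percentile of the arrays lay between 294.2 and 1594 intensity units, between 23152 and 26183 probes were well above background, and no spot was saturated. Values below are log2 signals relative to that percentile, so 0 is the level of the array's 75th percentile. A probe called well above background by the scanner software is written as above background. The 3 arrays of a group correlated at 0.982 to 0.992. Both Ptk2 probes were above background on all 12 arrays, and where they lie relative to the deleted part was not known, so they do not check the labels. Sources disagreed on day 3: the day 3 columns of the deposited value table correlated at 0.833 to 0.874 with the scanner file of their own sample, and at 0.972 to 0.984 with the day 3 file of the other line at the same density. The day 3 scanner files correlated at 0.979 to 0.985 with their own group and at 0.904 to 0.925 with the other line. Which source carries the right labels is not settled by the labels. All results use the scanner files, and differences between the lines without day 3 are given for Mest, Peg3, Peg10, Igf2r and Grb10.

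Markers of the labelled cell type moved with the line. Summed over the 12 fibroblast markers, levels were 338 to 396 times the 75th percentile in the KO cultures and 808 to 1203 times in the rescue cultures. Collagen genes such as Col1a1 and Col1a2 were above background everywhere, Thy1 and Fap did not pass the filter, and Lum was above background in the rescue dense group and on no array of the other 3 groups. The markers did not all go one way: of the 10 tested, 0 were higher (0 also at an unadjusted p under 0.05) and 9 lower in KO than rescue dense cells, and 3 were higher and 6 lower in sparse cells (limma). Of all tested genes, limma (adjusted p under 0.05) called 31.9% higher and 29.7% lower in dense cells. In sparse cells the shares were 23.2% and 25.6%. All marker counts in this paragraph are descriptions beside these shares. All 7 mesothelial markers on the array were above background in the KO groups, among them Wt1, Upk3b and Gpm6a, against 2 of 7 (Msln and Krt19) on all arrays of each rescue group. The mesothelial sum was 81.2 to 97.6 in the KO cultures and 23.6 to 42.1 in the rescue cultures. Of the 7 tested mesothelial markers, limma called 6 higher and 1 lower in KO than rescue dense cells. In sparse cells it called 5 higher and 1 lower. The epithelial sum, mostly Krt18 and Krt14, was 101 to 148 in the KO cultures and 1.504 to 6.95 in the rescue cultures. Of the 6 tested epithelial markers, 3 were higher and 1 lower in KO dense cells and 2 were higher and 1 lower in KO sparse cells, and Cdh1, the E-cadherin gene, was above background in rescue groups and on no KO array. The adipocyte sum was 0.132 to 0.350 in the KO cultures and 2.29 to 4.69 in the rescue cultures, and the skeletal muscle precursor sum was 0.604 to 1.27 in the KO cultures and 0.159 to 0.328 in the rescue cultures. Myod1 and Myog, muscle regulators, and Nanog and Zfp42, pluripotency genes, were above background in KO groups and on no rescue array. The pluripotent sum was 0.239 to 0.421 in the KO, 0.246 to 0.398 in the rescue dense and 0.696 to 1.18 in the rescue sparse cultures. Of the 2 tested pluripotent markers, 1 was higher and 1 lower in KO than rescue cells at each density (limma). Other than the pluripotent sum, these levels go with the line in every result below that sets KO against rescue. The part of any marker in those results was not tested. In bulk RNA, fewer cells that express a gene and less RNA per cell cannot be told apart.

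Mest and Peg3 separated the lines most widely of the imprinted growth genes. Mest, on chromosome 6, encodes an enzyme-like protein of the alpha/beta-hydrolase fold and is abundant in embryonic mesoderm. Peg3, on chromosome 7, encodes a large zinc-finger protein. Because these genes were picked for their pattern across the 4 groups, their differences between the lines and between the densities are given as a description, with no test. Between the lines, the values of 4 of the 6 tested members did not overlap in dense cells and 4 of 6 in sparse cells, against 67.1% and 58.9% of all tested genes, and nothing is read from these counts. The windows from 250 bases before to 50 bases after their RefSeq starts are shown for Mest and Peg3, which were high in KO cells, and for Igf2r, which was higher in rescue cells. They are from RefSeq on mouse build GRCm38.p6, 5′ to 3′ on the gene's strand, with each CpG, the dinucleotide that carries DNA methylation at imprinted promoters, in capitals.

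Mest, chr6:30737800-30738099, plus strand: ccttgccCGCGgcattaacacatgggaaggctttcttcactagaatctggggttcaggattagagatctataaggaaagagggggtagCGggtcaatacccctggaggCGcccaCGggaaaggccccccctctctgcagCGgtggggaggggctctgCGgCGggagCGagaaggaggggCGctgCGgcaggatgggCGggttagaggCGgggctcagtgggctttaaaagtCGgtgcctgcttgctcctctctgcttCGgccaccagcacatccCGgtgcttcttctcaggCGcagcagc

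Peg3, chr7:6730370-6730669, minus strand: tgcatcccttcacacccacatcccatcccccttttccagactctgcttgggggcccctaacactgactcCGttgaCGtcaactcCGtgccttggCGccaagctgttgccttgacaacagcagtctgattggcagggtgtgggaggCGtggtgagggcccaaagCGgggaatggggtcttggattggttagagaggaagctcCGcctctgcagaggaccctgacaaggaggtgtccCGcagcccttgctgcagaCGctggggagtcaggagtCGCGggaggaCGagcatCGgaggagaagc

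Igf2r, chr17:12769657-12769956, minus strand: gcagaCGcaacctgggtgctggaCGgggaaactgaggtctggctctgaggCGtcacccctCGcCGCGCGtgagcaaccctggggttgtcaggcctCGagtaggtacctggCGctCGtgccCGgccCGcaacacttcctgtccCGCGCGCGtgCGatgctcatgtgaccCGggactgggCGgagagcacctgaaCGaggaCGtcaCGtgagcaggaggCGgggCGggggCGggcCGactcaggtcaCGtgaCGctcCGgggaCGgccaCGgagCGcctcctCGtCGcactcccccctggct

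The Mest window held 17 CpG, the Peg3 window 13 and the Igf2r window 34, against a median of 7 over the 32851 windows of the same length in the table. At least as many CpG were found in 31.4% of all windows for Mest, in 37.9% for Peg3 and in 7.73% for Igf2r. A second Mest start upstream (chr6:30733256-30733555, plus strand) had 8 CpG, and the array files do not say which start a probe reads. TGCCGC, the letters read by the imprint-keeping zinc-finger protein ZFP57, occurred 2 times in the printed Mest window when both strands were searched, and in 11.6% of all windows. GGGGCCCC, a palindrome at the core of the motif of PLAGL1, occurred 1 time in the Peg3 window and in 1.08% of all windows. The 2 motifs share no overlapping match here, and a match is only a match of letters. Of the 10 genes, 8 had a window in the table, 14 windows in all.

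Mest stood at 7.17, 7.30 and 7.22 in KO dense cultures and at 6.94, 7.05 and 6.66 in KO sparse cultures. In rescue dense cultures it stood at -4.56, -3.83 and -4.87, and in rescue sparse cultures at -4.55, -4.79 and -5.27. All KO values lay far above all rescue values, while within each line the densities lay close together. Mest was above background on all 9 of the KO and rescue dense arrays and on 2 of 3 rescue sparse arrays, so its level in rescue cells was low but measured. KO minus rescue was 11.65 ± 0.27 (log2, SE, n = 3 each) in dense cells, a ratio of 3216, and 11.76 ± 0.27 in sparse cells, a ratio of 3458. On the 1 slide that held both lines the difference was 11.13 in dense and 11.84 in sparse cells, and without day 3 it was 11.43 in dense and 11.67 in sparse cells. With the normexp background correction, which adds an offset to all signals, it was 9.95 in dense and 9.45 in sparse cells.

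Peg3 was measured by 2 probes, both above background on all 6 KO arrays and on none of the 6 rescue arrays. The brighter probe read 2.07, 2.13 and 1.75 in KO dense cultures and 1.45, 1.86 and 1.81 in KO sparse cultures. It read -8.68, -8.20 and -8.56 in rescue dense cultures and -7.93, -8.30 and -7.26 in rescue sparse cultures. The rescue values are readings of a probe not above background, so only a lower bound of the ratio can be given. The bound sets the KO mean against the lowest signal that was above background on each rescue array, or the probe's own signal where that was higher. With the main processing, Peg3 was at least 350-fold higher in KO than in rescue dense cells. In sparse cells it was at least 211-fold higher in KO than in rescue cells. Peg3 passed the filter described below only through KO groups, so that a difference between the lines was built into its selection. For the other probe the bounds were 302-fold and 120-fold. Without day 3, the bounds of the brighter probe were 388-fold in dense and 194-fold in sparse cells. With the normexp background correction, KO and rescue readings of Peg3 differed by 5.31 in dense and 4.94 in sparse cells (log2). These differences are smaller than the bounds with all days, which are 8.45 and 7.72 in log2. The bounds therefore hold only for the main processing.

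**Figure D1:**
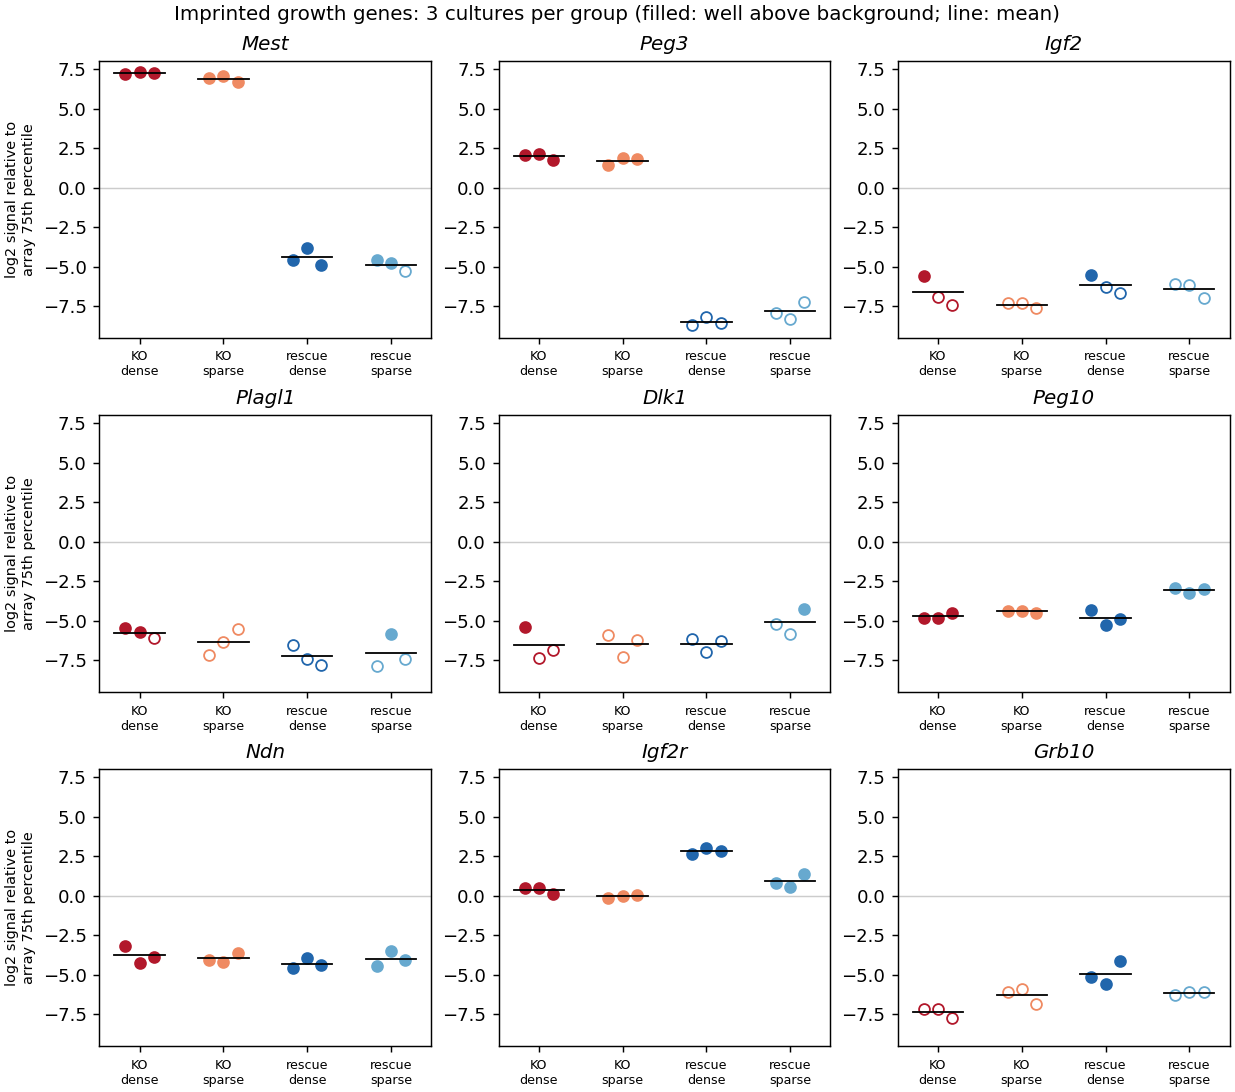
Log2 signal relative to the array's 75th percentile (y) of the 9 imprinted growth genes with a probe, for the 3 cultures of each group (points, x) with the group mean (line). Filled points were well above background and open ones were not. Mest and Peg3 are high in all 6 KO cultures, Igf2r is highest in rescue dense cultures, and Igf2, Dlk1 and Plagl1 are mostly open.

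The 3 paternally read members Igf2, Plagl1 and Dlk1 were near or below the background. Igf2, the growth factor itself, has 2 probes. The brighter one was above background on 1 KO dense array (-5.56) and 1 rescue dense array (-5.54), and on no sparse array, where it read -7.60 to -7.28 in KO and -7.01 to -6.09 in rescue cells. The other Igf2 probe was above background on no array. Igf2 was therefore not detectable on 10 of 12 arrays at this brightness, which limits any statement on its level. Plagl1, a zinc-finger transcription factor, was above background on 2 KO dense arrays and 1 rescue sparse array. Its values ran from -6.10 to -5.45 in KO dense, -7.18 to -5.50 in KO sparse, -7.78 to -6.53 in rescue dense and -7.84 to -5.82 in rescue sparse cultures. Dlk1, a membrane protein related to Notch ligands that holds back fat cell formation, was above background on 1 KO dense array (-5.41) and 1 rescue sparse array (-4.23). The 3 genes did not meet the filter, which asked for 1 group with all of its 3 arrays above background, and were not tested.

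Peg10 and Ndn were dim and measured everywhere. Peg10, a gene derived from a retrotransposon and needed for the placenta, read -4.82, -4.81 and -4.51 in KO dense cultures and -4.37, -4.39 and -4.49 in KO sparse cultures. It read -4.31, -5.27 and -4.91 in rescue dense cultures and -2.90, -3.26 and -3.01 in rescue sparse cultures. The rescue sparse cultures stood above all others, and the KO dense and rescue dense cultures overlapped. KO minus rescue was 0.12 ± 0.23 in dense cells and -1.36 ± 0.23 in sparse cells (log2, SE, n = 3 each). Without day 3 it was -0.02 in dense and -1.30 in sparse cells. In sparse cells the sign turned with the normexp background correction, to 0.11. Ndn, which encodes necdin, a protein of the MAGE family known for restraining the growth of neurons, averaged -3.77 ± 0.52 in KO dense, -3.96 ± 0.29 in KO sparse, -4.30 ± 0.31 in rescue dense and -4.01 ± 0.48 in rescue sparse cultures (SD, n = 3 each). The groups of Ndn overlapped in both lines and at both densities.

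Of the maternally read restrainers of IGF signalling, Igf2r was lower in KO cells at both densities, and Grb10 was near or below the background. Igf2r, on chromosome 17, read 0.47, 0.47 and 0.09 in KO dense cultures and -0.13, -0.05 and 0.05 in KO sparse cultures. It read 2.66, 2.99 and 2.83 in rescue dense cultures and 0.79, 0.54 and 1.37 in rescue sparse cultures. From high to low, the groups stood in the order rescue dense, rescue sparse, KO dense, KO sparse, and no values of neighbouring groups in that order overlapped, although the lowest KO dense value (0.09) lay close to the highest KO sparse value (0.05). KO minus rescue was -2.48 ± 0.22 in dense cells and -0.94 ± 0.22 in sparse cells (log2, SE, n = 3 each). On the slide that held both lines the differences were -2.52 and -0.59, and without day 3 they were -2.36 and -0.75. Grb10, on chromosome 11, has 3 probes that disagreed. The brightest was above background on all 3 rescue dense arrays (-5.13, -5.58 and -4.12) and on no other array, and the other 2 probes were above background on no array. By that brightest probe, Grb10 was at least 1.93-fold lower in KO than in rescue dense cells, and at least 1.52-fold lower without day 3. It passed the filter only through the rescue dense group, so that a difference from that group was built into its selection. In the authors' deposited values its KO minus rescue difference in dense cells turned to 0.026. Without the day 3 columns of those values, which correlated more closely with the other line's scanner files, it was -0.62.

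Between the densities, Igf2r and Peg10 differed more in rescue than in KO cells. On every day both densities of a line were on 1 slide, so the dense minus sparse differences are within slides. The values of the densities did not overlap for 4 of the 6 genes in KO cells, against 38.2% of all tested genes, and for 3 of 6 in rescue cells, against 50.6% of all, and nothing is read from these counts. The dense minus sparse difference of Igf2r was 0.60, 0.52 and 0.04 on the 3 days in KO cells, and 1.88, 2.45 and 1.46 in rescue cells. The fitted means were 0.39 ± 0.22 in KO cells and 1.93 ± 0.22 in rescue cells (log2, SE, n = 3 each). That of Peg10 was -0.45, -0.41 and -0.03 on the 3 days in KO cells and -1.41, -2.01 and -1.90 in rescue cells, with means of -0.30 ± 0.23 and -1.78 ± 0.23. For both genes the daily differences of the lines did not overlap. With the normexp background correction the Peg10 difference in rescue cells was -0.49. Grb10 was not above background at either density in KO cells. In rescue cells it was at least 2.05-fold higher in dense than in sparse cells, a difference built into its selection as above.

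In rescue cells, Mest and Ndn differed less between the densities than Igf2r and Peg10 did. In KO cells, Mest and the brighter Peg3 probe differed about as much as Igf2r (0.39) and Peg10 (-0.30). The dense minus sparse difference of Mest was 0.35 ± 0.27 in KO cells and 0.45 ± 0.27 in rescue cells (log2, SE, n = 3 each). That of Peg3 was 0.28 ± 0.26 in KO cells by the brighter probe and 0.88 ± 0.45 by the other, and Peg3 was not above background at either density in rescue cells. Ndn had differences of 0.19 ± 0.31 in KO cells and -0.29 ± 0.31 in rescue cells.

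**Figure D2:**
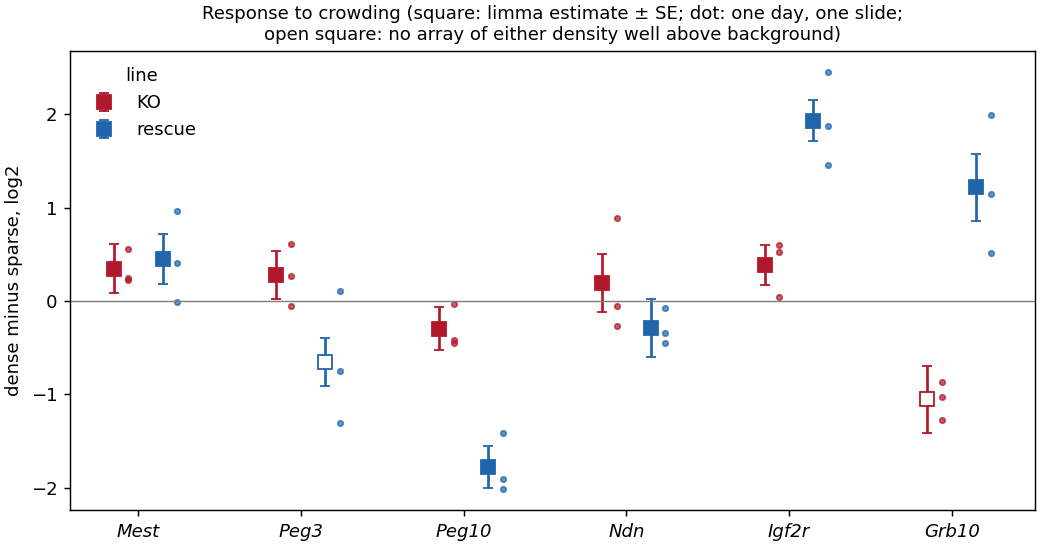
Dense minus sparse log2 difference (y) of the 6 tested imprinted growth genes (x), in KO cells to the left of rescue cells. Squares are limma estimates with SE, dots the 3 days, and open squares have no array of either density well above background. Igf2r and Peg10 lie near 0 in KO cells (0.39 and -0.30) and far from it in rescue cells (1.93 and -1.78).

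The interaction, the dense minus sparse difference in KO cells minus that in rescue cells, measures how far the lines differed in their response to crowding. It was -1.54 ± 0.31 for Igf2r, 1.48 ± 0.32 for Peg10, 0.48 ± 0.44 for Ndn and -0.10 ± 0.38 for Mest (log2, SE). Without day 3 these values were -1.61, 1.28, 0.68 and -0.24. For Peg3 and Grb10 no interaction is given, since each was below background at both densities of 1 line.

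Genes whose levels followed each member most closely were listed by Pearson's r over the 12 arrays, as a description. These 12 points fall into 2 lines and 2 densities, so any gene that separates the lines in the same way scores high. For Mest they were Wt1, which encodes a regulator of kidney and mesothelium development (r = 0.998), Folr1, a folate receptor gene (r = 0.998), and Upk3b, a uroplakin gene (r = 0.998). For Peg3 they were Mycn, a MYC family gene (r = 0.9996), St3gal6, a sialyltransferase gene (r = 0.9996), and Fam184a (r = 0.999). Mest and Peg3 correlated with each other at r = 0.995. For Igf2r the closest were Stk11ip (r = 0.991), Pex13, a peroxisome import gene (r = 0.986), and Wdr45, an autophagy gene (r = 0.983). For Peg10 they were Pea15a (r = 0.983), Lce1f (r = 0.964) and Hacd1 (r = 0.963). For Grb10 they were Gsap (r = 0.933), Ppip5k1 (r = 0.908) and Gfra1 (r = 0.907), and for Ndn they were Tub (r = 0.911), Spatc1l (r = 0.884) and Cnnm1 (r = 0.821). Peg3 in rescue cells and Grb10 outside rescue dense cells were not above background. The correlations of these 2 genes therefore rest partly on dim readings.

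Neighbours in the same imprinted domains did not follow a single direction. Of 39 listed neighbours, 29 had a probe and 16 were tested. A gene passed the test if its limma p, adjusted over the 12438 genes, was under 0.05. In dense cells, 5 rose in KO, 7 fell and 4 did not pass, against 61.6% of all tested genes that passed, 31.9% higher and 29.7% lower. In sparse cells, 3 rose, 6 fell and 7 did not pass, against 48.8% of all, 23.2% higher and 25.6% lower. The median KO minus rescue difference of the 16 was -0.48 in dense and -0.24 in sparse cells, against 0.08 and 0.03 over all tested genes. Several listed neighbours were too dim to test, among them Th beside Igf2, Zim1 and Usp29 beside Peg3, Dio3 beside Dlk1, Slc22a2 and Slc22a3 beside Igf2r, and Peg12 beside Ndn.

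Beside Mest on chromosome 6, Copg2, a coat protein gene that overlaps Mest on the other strand, fell by 1.05 in KO dense cells (log2, SE 0.26, limma adjusted p = 0.0037). In sparse cells the KO minus rescue difference of Copg2 was 0.21 ± 0.26 (adjusted p = 0.52). In the Peg10 domain, also on chromosome 6, the genes went apart. Ppp1r9a, which encodes neurabin, an actin-binding protein, was at least 70.7-fold higher in KO than rescue dense cells and at least 45.2-fold higher in sparse cells (limma adjusted p = 2.55e-10 and 7.42e-10). Asb4, an ankyrin-repeat gene of ubiquitin ligases, was at least 22.3-fold lower in KO than rescue dense cells and at least 53.4-fold lower in sparse cells (adjusted p = 3.88e-10 and 1.33e-10). Ppp1r9a passed the filter only through KO groups and Asb4 only through rescue groups, so that a difference between the lines was built into their selection. Sgce, the sarcoglycan gene that shares a start region with Peg10, fell by 1.36 in dense and by 1.48 in sparse KO cells (SE 0.21; adjusted p = 0.00012 and 9.5e-05). Pon3, a lactonase gene, fell by 2.81 and 1.22 (SE 0.26; adjusted p = 1.9e-06 and 0.0022). Pon2 rose by 0.96 ± 0.18 in dense KO cells (adjusted p = 0.00053), and its sparse difference was -0.19 ± 0.18 (adjusted p = 0.4).

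On chromosome 7, Ndn itself did not separate the lines, but genes of the same domain did. Snrpn, a splicing protein gene, fell by 3.28 in dense and by 3.62 in sparse KO cells (log2, SE 0.48; limma adjusted p = 9.3e-05 and 6.3e-05). It was above background on 2 of 3 KO dense and 1 of 3 KO sparse arrays, so these sizes rest partly on dim readings. Snurf was at least 7.99-fold lower in KO dense and at least 7.72-fold lower in KO sparse cells (adjusted p = 8.1e-08 and 5.7e-08). Snurf and Snrpn lie on a shared transcript, so their probes may read the same RNA. Atp10a, a lipid flippase gene, was at least 11.3-fold lower in KO dense and at least 19.5-fold lower in KO sparse cells (adjusted p = 3.1e-06 and 1.1e-06). Snrpn, Snurf and Atp10a passed the filter only through rescue groups, so that a difference between the lines was built into their selection. Ube3a, a ubiquitin ligase gene, had differences of 0.10 ± 0.25 in dense and 0.43 ± 0.25 in sparse cells and did not pass. Ins2, next to Igf2, rose by 3.53 and 2.83 in dense and sparse KO cells (SE 0.23; adjusted p = 9.1e-08 and 8.4e-07). Ins2 was above background on 2 of 3 arrays in each rescue group, so these sizes rest partly on dim readings. It passed the filter only through KO groups.

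Beside Grb10 on chromosome 11, Ddc, the decarboxylase that makes dopamine and serotonin, rose by 5.90 in dense and by 6.40 in sparse KO cells (SE 0.24; limma adjusted p = 1.26e-09 and 8.72e-10). Cobl, an actin nucleator gene, was at least 17.5-fold higher in KO than rescue dense cells (adjusted p = 7.7e-08), whereas in sparse cells the difference was -0.23 ± 0.29 (adjusted p = 0.54). Crowding lowered Cobl in rescue cells at least 16.1-fold (adjusted p = 1.88e-06), and the interaction was 4.77 ± 0.41 (adjusted p = 4.78e-05). Cobl was above background on no rescue dense array, so the size of its interaction rests partly on readings of a dim probe. In the whole neighbour list, crowding raised 3 genes and lowered 0 in KO cells (limma; 1 lower at an unadjusted p under 0.05), against 5.43% and 5.48% of all tested genes. The 3 were Casd1, Sgce and Pon2, whose calls were lost in 3, 12 and 15 of 24 alternative settings. In rescue cells 5 rose and 4 fell, against 19% and 21% of all, or 40% in either direction. The interaction passed the test as positive for 3 and as negative for 2 of the 16, against 11.3% and 9.46% of all.

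**Figure D3:**
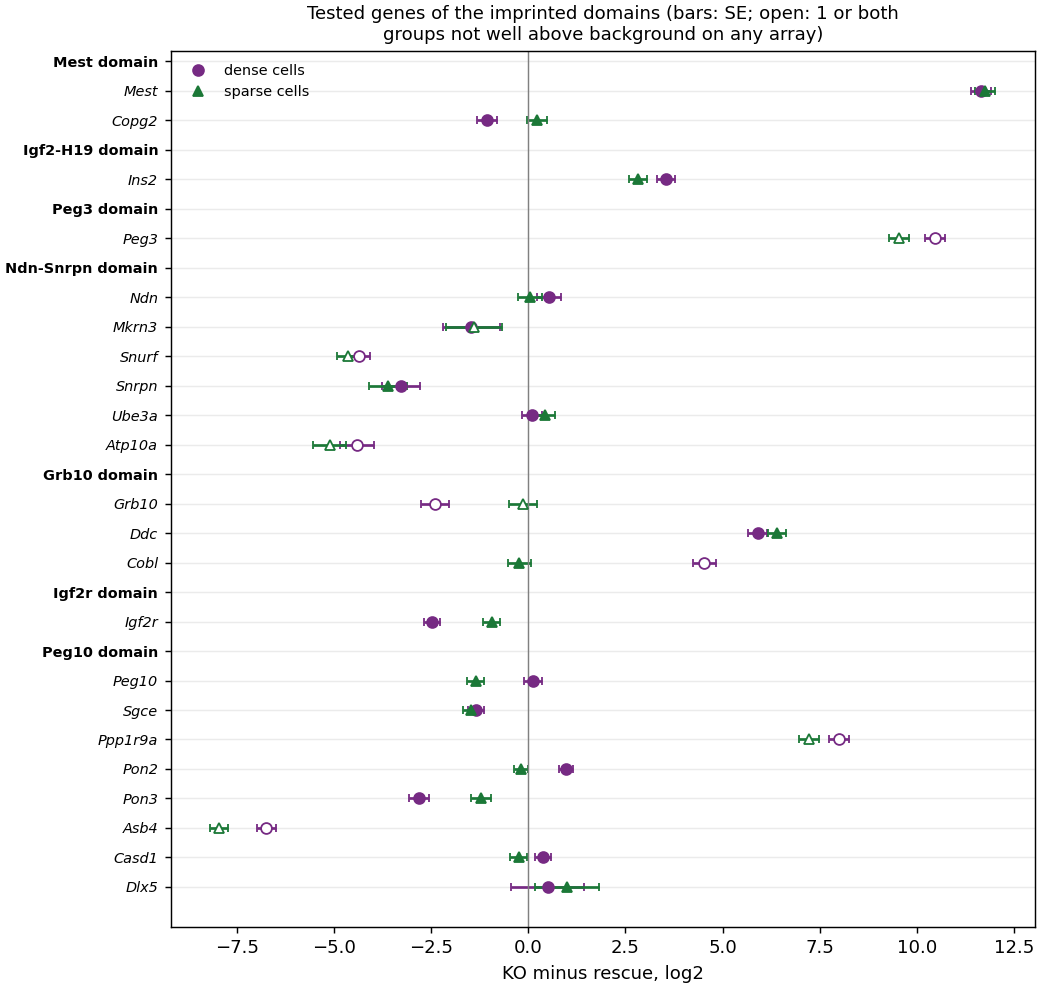
KO minus rescue log2 difference (x) of the tested genes of each imprinted domain (y), with SE, in dense (circles) and sparse (triangles) cells. Open symbols have at least 1 group not well above background on any array, so their distance from 0 is not a bound. Mest (11.65 and 11.76) and its neighbour Copg2 (-1.05 and 0.21) lie far apart, and Ppp1r9a and Asb4 lie on opposite sides of 0.

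Of 39 imprinted genes of other domains, 34 had a probe and 27 were tested. In dense cells 4 were higher and 13 lower in KO than rescue cells, against 31.9% and 29.7% of all tested genes, and in sparse cells 6 were higher and 13 lower, against 23.2% and 25.6%. Their median KO minus rescue difference was -0.55 in dense and -0.62 in sparse cells, against 0.08 and 0.03 over all tested genes. Qpct, an enzyme gene that modifies peptide ends, was at least 516-fold lower in KO dense and at least 142-fold lower in KO sparse cells (limma adjusted p = 1.46e-09 and 4.3e-09). Sfmbt2, a Polycomb-related gene, was at least 9.39-fold and 3.96-fold lower (adjusted p = 1.85e-08 and 4.83e-07). Qpct and Sfmbt2 passed the filter only through rescue groups, so that a difference between the lines was built into their selection. Slc38a4, an amino acid transporter gene of placenta and liver, rose by 3.99 in dense and by 2.49 in sparse KO cells (SE 0.25; adjusted p = 6.04e-08 and 5.3e-06). Dcn, the decorin gene, had a KO minus rescue difference of 0.42 ± 0.26 in dense cells (adjusted p = 0.19) and rose by 4.77 ± 0.26 in sparse KO cells (adjusted p = 2.14e-08). Its dense minus sparse difference in KO cells was 0.20 ± 0.26 (adjusted p = 0.67), and crowding raised it by 4.55 ± 0.26 in rescue cells (adjusted p = 1.04e-06). Over the list, crowding raised 2 and lowered 0 of 27 in KO cells (3 lower at an unadjusted p under 0.05). The shares of all tested genes there were 5.43% and 5.48%. In rescue cells crowding raised 8 and lowered 4, against 19% and 21% of all. The interaction was positive for 2 and negative for 2, against 11.3% and 9.46% of all. Dcn is also 1 of the 12 fibroblast markers above.

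Genes that set, keep or read imprints were tested next, 25 of 31 listed. In dense cells, 11 were higher and 3 lower in KO than rescue cells, against 31.9% and 29.7% of all tested genes, and in sparse cells 10 were higher and 4 lower, against 23.2% and 25.6%. The median difference was 0.22 in dense and 0.52 in sparse cells. Uhrf1, which brings the maintenance methyltransferase to newly copied DNA, rose by 3.40 ± 0.23 in dense KO cells (limma adjusted p = 1.1e-07) and by 1.11 ± 0.23 in sparse KO cells (adjusted p = 0.0016). Hells, a remodeller needed for DNA methylation, rose by 3.39 ± 0.24 and 1.29 ± 0.24 (adjusted p = 2.03e-07 and 0.00091). Ezh2, the Polycomb histone methyltransferase, rose by 2.95 ± 0.25 and 2.21 ± 0.25 (adjusted p = 9.89e-07 and 1.78e-05). Dnmt3b, a methyltransferase that sets new methylation, rose by 1.44 ± 0.28 in sparse KO cells (adjusted p = 0.00125). It also passed as higher in dense KO cells, with differences of 0.77 to 2.75 over 24 alternative settings, of which 23 kept the call.

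With crowding, 1 gene of this list rose and 0 fell in KO cells (limma; 1 lower at an unadjusted p under 0.05). The shares of all tested genes there were 5.43% and 5.48%. In rescue cells 4 rose and 7 fell, against 19% and 21% of all, or 40% in either direction. The interaction was positive for 6 and negative for 1, against 11.3% and 9.46% of all. In KO cells the dense minus sparse differences of Uhrf1 and Hells were 0.11 ± 0.23 and 0.10 ± 0.24. In crowded rescue cells Uhrf1 fell by 2.18 (SE 0.23, limma adjusted p = 2.86e-05) and Hells by 2.00 (SE 0.24, adjusted p = 7.86e-05), and the interactions were 2.29 ± 0.32 (adjusted p = 0.000707) and 2.10 ± 0.34 (adjusted p = 0.00168). Tet2, which oxidises methylated cytosine, rose by 1.81 ± 0.30 in crowded rescue cells (adjusted p = 0.000569), with an interaction of -1.90 ± 0.42 (adjusted p = 0.00859).

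**Figure D4:**
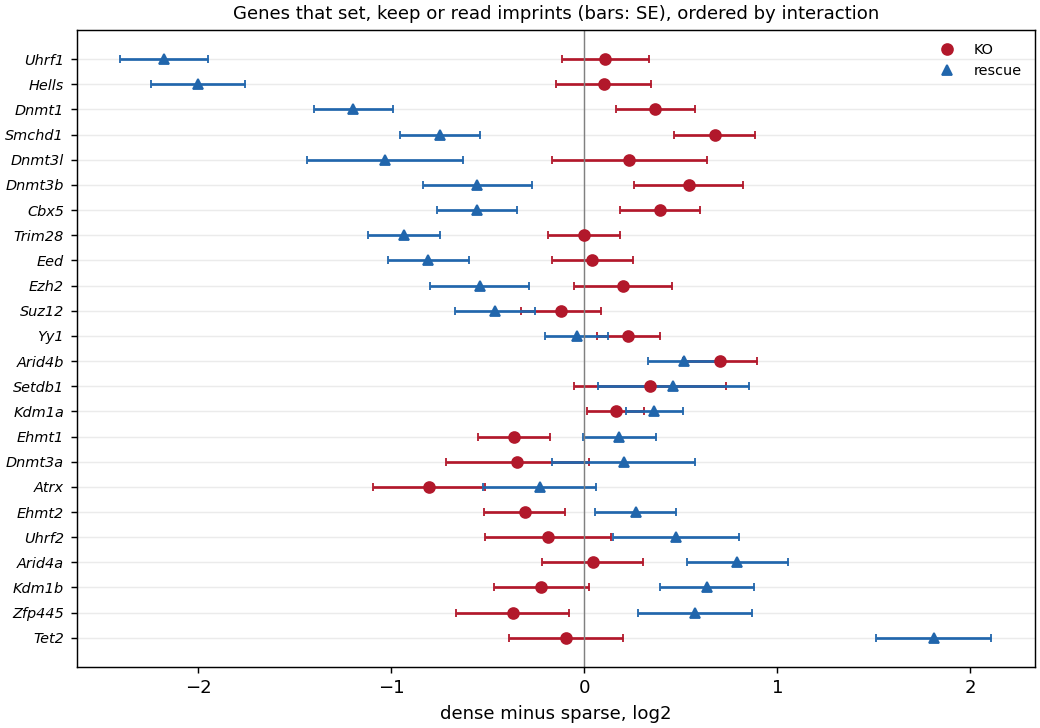
Dense minus sparse log2 difference (x) of 24 of the 25 tested genes that set, keep or read imprints (y, ordered by the interaction), with SE, in KO (circles) and rescue (triangles) cells. Uhrf1 and Hells lie near 0 in KO cells (0.11 and 0.10) and far below it in rescue cells, Uhrf1 at -2.18.

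Genes that handle IGF ligands and their signal were spread to both sides. Of 27 listed, 23 were tested, with 9 higher and 8 lower in KO than rescue dense cells, against 31.9% and 29.7% of all tested genes, and 10 higher and 7 lower in sparse cells, against 23.2% and 25.6%. The medians were -0.32 in dense and 0.23 in sparse cells. Lin28a and Lin28b, which encode RNA-binding proteins that block let-7 and bind Igf2 mRNA, were above background in KO cells and on no rescue array. Lin28a was at least 35.6-fold higher in KO dense and at least 16.3-fold higher in KO sparse cells (limma adjusted p = 2.22e-10 and 1.15e-09). Lin28b was at least 42.1-fold and 40.8-fold higher (adjusted p = 1.42e-10 and 2.2e-10). Both Lin28 genes passed the filter only through KO groups, so that a difference between the lines was built into their selection. Igfbp5, a secreted IGF-binding protein gene, rose by 6.98 ± 0.49 in KO dense cells (adjusted p = 1.53e-07) and was at least 31.1-fold higher in KO sparse cells (adjusted p = 6.78e-07). It was above background on 1 of 3 rescue dense arrays, so the dense size rests partly on dim readings. Igfbp5 also passed the filter only through KO groups. Igfbp7, a related secreted protein gene, fell by 3.38 in dense and by 3.40 in sparse KO cells (SE 0.27; adjusted p = 5.32e-07 and 6.69e-07).

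Igf1, the second IGF ligand gene, had an interaction of 1.53 ± 0.32 (limma adjusted p = 0.00611). Its dense minus sparse difference was 0.48 ± 0.22 in KO cells (adjusted p = 0.19), and it fell by 1.05 in crowded rescue cells (log2, SE 0.22, adjusted p = 0.003). Igfbp5 rose by 2.10 ± 0.49 in crowded KO cells (adjusted p = 0.0198), and Pik3r1, the regulatory subunit gene of PI3 kinase, fell there by 1.29 (SE 0.29, adjusted p = 0.0181). These calls were lost in 6 and 7 of 24 alternative settings. Igfbp2 rose by 2.09 ± 0.36 in crowded rescue cells (adjusted p = 0.000857). Over the list, crowding raised 2 and lowered 3 of 23 in KO cells, against 5.43% and 5.48% of all tested genes. In rescue cells crowding raised 4 and lowered 2, against 19% and 21% of all. The interaction was positive for 4 and negative for 5, against 11.3% and 9.46% of all. These lists were chosen with earlier results of these data known, and the counts are descriptions beside the background shares given above.

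**Figure D5:**
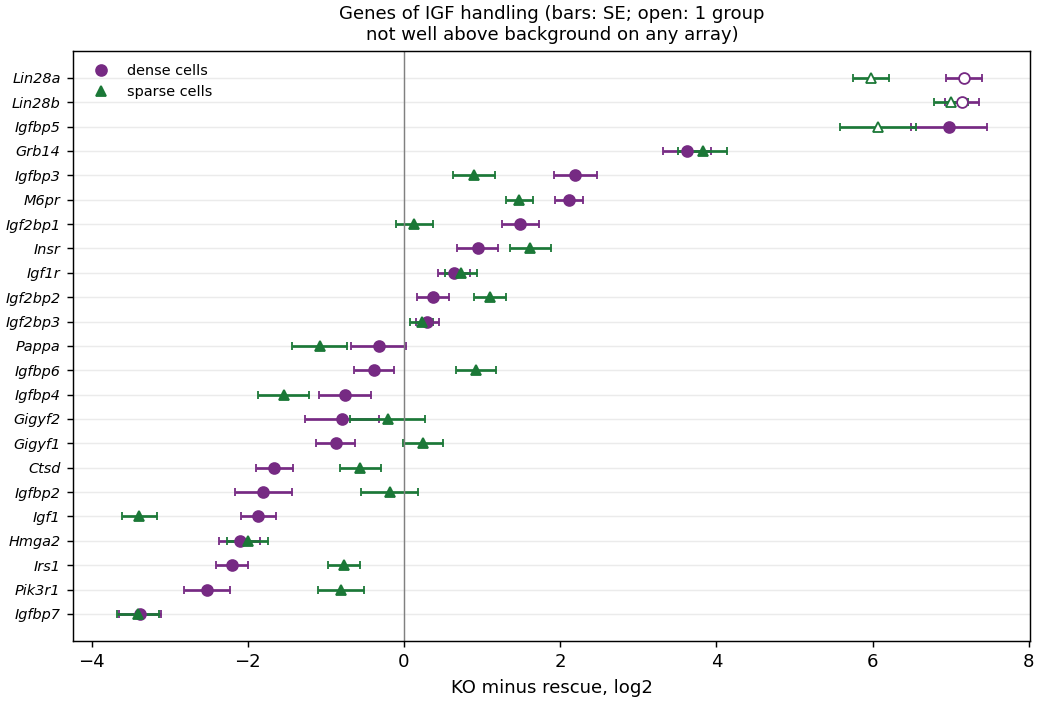
KO minus rescue log2 difference (x) of the 23 tested genes of IGF handling (y, ordered by the dense difference), with SE, in dense (circles) and sparse (triangles) cells. Open symbols have 1 group not well above background on any array. Lin28a, Lin28b and Igfbp5 lie at the top, at 5.98 to 7.17, and Igfbp7 at the bottom, at -3.38 and -3.40.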

How the data were processed

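Total RNA of each culture was labelled with Cy3 and hybridised to 1 Agilent array, per the labels' protocols. The deposited scanner files hold spot intensity on a linear scale, background-subtracted within the array by Feature Extraction 10.5.1.1, per the file headers, with no scaling from array to array. A deposited table of log2 values, whose scaling by the authors is not given in the sources used here, served as an alternative.

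Flagged spots (79 to 265 per array) were left out. Log2 intensity minus the 75th percentile of the array was used, and probes were named by RefSeq identifier through a RefSeq gene table (24375 of 41174 probes had 1 gene). Probes were kept where all 3 arrays of any group were well above background, and the brightest kept probe stood for its gene. A probe printed 10 times counted as above background if a share of at least 0.5 of its spots was. The 4 group means were fitted in limma 3.58.1 (R 4.3.3) to 12438 genes, with Benjamini-Hochberg adjustment and a threshold of 0.05. The script was tested on simulated data. The imprinted growth genes were chosen on their signals in all 4 groups, so their differences are given with no p, although tests for density had been planned.

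The members and all gene lists were chosen with earlier results of these data known. All members are named; of the other lists, eligible are the 3 called genes with the largest change in a comparison and the largest the opposite way, and any domain neighbour. The day pairs the cultures per the labels (11 of 18 same-day pairs of arrays had deviations correlated above 0.1, range -0.0366 to 0.296), and was used as a block in an alternative. The 5 slides held the densities of a line and day together, and only 1 slide held both lines, so line and slide cannot be told apart on days 1 and 3. One gene that this rule names is not reported here. The 12 arrays limit the precision. Since gMeanSignal is not in the files, the normexp alternative (offset 50) used median signals. Alternatives covered scaling, background, filters, probes, blocks, the value table and left-out cultures.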

Additional observations from a re-analysis of the deposited data

Results flagged for a closer look

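The genes below, none of them among the 10 imprinted growth genes, responded differently to crowding in the 2 lines, by limma's interaction test (dense minus sparse in KO cells minus that in rescue cells, log2, adjusted p under 0.05). Of each list, in which further genes passed, the 3 with the largest interaction are given. Among domain neighbours they were Cobl (4.77), Pon3 (-1.59) and Copg2 (-1.27). Among imprinted genes of other domains they were Dcn (-4.35), Sfmbt2 (-1.54) and Slc38a4 (1.502). Among genes that set, keep or read imprints they were Uhrf1 (2.29), Hells (2.10) and Tet2 (-1.90). Among genes of IGF handling they were Pik3r1 (-1.72), Igfbp2 (-1.62) and Igf1 (1.53). Sfmbt2 was below background in both KO groups, so that its value rests on readings of a dim probe. Cobl was above background on no rescue dense array, so that its value rests partly on such readings. Of 24 alternative settings, the call was lost in 16 for Igfbp2, 10 for Copg2, 5 for Slc38a4 and 5 for Sfmbt2. In 1 further setting, the authors' deposited values with their day 3 columns, the Sfmbt2 interaction turned to 0.096 and did not pass. No cause was tested for any of these differences.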

How the results depend on the processing

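With the normexp background correction, fewer genes passed: 5045 and 3392 for KO minus rescue in dense and sparse cells, 47 and 2345 for dense minus sparse in KO and rescue cells, and 592 for the interaction. Mest was then at 9.95 and 9.45 and Peg3 at 5.31 and 4.94 (KO minus rescue, log2, dense and sparse) and Peg10 in sparse cells turned to 0.11. All Peg3 rescue readings are below background, so that its values here are differences of readings and not bounds. Quantile normalization gave Peg3 10.02 in dense cells, and the mean of kept probes 9.04 in sparse cells. The slide that held both lines gave 10.16 for Peg3 in sparse and 11.13 for Mest in dense cells.

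In the full deposited table, 0 and 0 genes passed for KO minus rescue, 1 and 0 for density in KO and rescue cells and 0 for the interaction (limma; 61, 83, 955, 903 and 32 at an unadjusted p under 0.05). These fits include the day 3 columns, which correlated at 0.972 to 0.984 with the other line's scanner files and at 0.833 to 0.874 with their own. Mest was there at 3.62 and 3.31 and Peg3 at 2.56 and 2.25 in dense and sparse cells, and Grb10 in dense cells turned to 0.026. Without its day 3 columns, an alternative chosen after seeing the data, Mest was at 10.91 and 10.20 and Peg3 at 7.01 and 6.61. Grb10 in dense cells was then at -0.62. In the deposited table without day 3, 775 genes passed for density in KO cells and 1402 for the interaction.

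With cultures left out, genes that passed numbered 514 to 1599 for density in KO cells and 1214 to 2572 for the interaction, against 1358 and 2579 with all 12. The lowest were without the day 2 KO dense culture and without all of day 3.

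Centring on the median moved the median of all genes to -0.28 for KO minus rescue in sparse cells, 0.25 for density in KO cells and 0.29 for the interaction. The calls then split into 1785 higher and 4048 lower, 1227 and 290, and 1694 and 696. With quantile normalization the split for density in KO cells was 948 and 553.

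With the day as a replicate block, 7973 and 6418 genes passed for KO minus rescue in dense and sparse cells, 1597 and 5364 for density in KO and rescue cells and 2950 for the interaction. Over all 24 alternatives, dense minus sparse in rescue cells lay between 1.52 and 2.18 for Igf2r and between -2.04 and -0.49 for Peg10, and the interaction between -1.78 and -0.44 and between 0.23 and 1.74. The lowest sizes were in the deposited table and, for Peg10 in rescue cells, with normexp. In the authors' deposited values, with the day 3 columns included, Snrpn turned to 0.058 for KO minus rescue in sparse cells. Except where fewer arrays entered, the cause was not tested. Planned counts of imprinted growth genes passing a test were not run, since these genes were chosen on the same signals. Dim probes limit Igf2, Dlk1, Plagl1 and Grb10 here.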
